A study of Caenorhabditis elegans with 2 samples.

Results

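MicroRNA genes with a peak of tagged HLH-17 at their start are described here, with the mir-51 family first. Of the 261 genes annotated as microRNA genes in the worm, 107 (41.0%) had a summit of the pooled peak list between 1000 bp upstream and 300 bp downstream of their start. Of all 46890 genes annotated on the nuclear chromosomes, 31.5% met the same rule. By type, 41.2% of ncRNA genes, 40.3% of snRNA genes, 37.9% of snoRNA genes, 32.0% of protein-coding genes and 25.1% of piRNA genes did. The microRNA share is thus near that of some other types and not particular to microRNA genes. The position of pooled summits chose the 107 genes, so their number and their pooled signals are given as a description and were not tested. Where a window held several summits, the one with the highest signal was taken as the gene's peak. Neighbouring genes can share a peak, and the 107 genes had 88 distinct peaks.

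The peaks come from chromatin immunoprecipitation and sequencing of whole, mixed-sex Caenorhabditis elegans, starved after bleaching and collected as L1 larvae at 6 h. All animals were of strain OP643. They carried the integrated transgene wgIs643, which encodes HLH-17 with TY1, EGFP and 3xFLAG tags and a wild-type copy of unc-119, over the unc-119 allele tm4063. The strain is 1 transgenic line, the antibody was raised against GFP, and the tagged protein is an added copy. The 2 biological replicates form 1 group, with no second genotype, stage or feeding state, so nothing below compares conditions. The labels give whole animals as the tissue, and peak lists hold no transcript levels by which a cell type could be checked.

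MicroRNAs are short RNAs cut from hairpin precursors that guide Argonaute proteins to messenger RNAs. Target choice rests mainly on the seed, bases 2 to 8 of the mature strand, and genes that share a seed are counted as a family. Several worm microRNAs are encoded in clusters that are transcribed together, and others lie inside introns of host genes. HLH-17, a basic helix-loop-helix factor related to Olig proteins, is known from glia of the worm head. Factors of this class bind the E-box, CANNTG. The mir-51 family is broadly expressed and needed for embryonic viability, the mir-35 family acts in the embryo, and the let-7 family times larval development.

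The mature sequences of the mir-51 family are shown because its genes carried the strongest microRNA peaks. They were read from the RefSeq genome WBcel235 (ce11), 5′ to 3′, with the seed in capitals.
mir-51: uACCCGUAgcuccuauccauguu
mir-52: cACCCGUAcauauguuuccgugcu
mir-53: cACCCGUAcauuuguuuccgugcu
mir-54: uACCCGUAaucuucauaauccgag
mir-55: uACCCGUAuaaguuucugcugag
mir-56: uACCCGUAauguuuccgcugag
mir-55b: uAACCGAUagguuucugccgag
The first 6 share the seed ACCCGUA. The annotated product of mir-55b, which lies antisense over mir-55, does not carry it, so mir-55b is a neighbour of the family by position and name and not by seed.

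The genome sequences of 151 bp centred on the pooled summits of the family's peaks follow, as printed on the plus strand of ce11 and with E-boxes in capitals.
mir-52, chrIV:14034031-14034181: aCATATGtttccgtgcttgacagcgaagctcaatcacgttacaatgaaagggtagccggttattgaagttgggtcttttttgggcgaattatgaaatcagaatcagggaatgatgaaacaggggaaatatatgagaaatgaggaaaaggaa
mir-55, mir-55b and mir-56, chrX:13144561-13144711: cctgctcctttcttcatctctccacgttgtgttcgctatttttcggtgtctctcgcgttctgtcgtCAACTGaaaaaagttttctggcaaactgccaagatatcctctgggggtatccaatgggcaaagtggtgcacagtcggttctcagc
Each window held 1 E-box, CATATG at mir-52 and CAACTG at the other peak.

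mir-52 carried the strongest microRNA peak, and it stood near the top of every list. The gene lies on chromosome IV (ce11, 14034008 to 14034107, plus strand), outside protein-coding genes and with no other microRNA gene starting on its strand within 10 kb. Its peak ranked 4 of 30000 in the pooled list, with a signal of 365 on the authors' unstated scale. It ranked 9 in replicate 1 with a signal of 121 and 4 in replicate 2 with a signal of 248, and signals of different lists are not on 1 scale. The authors' estimated q for the pooled peak was 0.0476. The pooled summit at 14034106 lay just inside the 3′ edge of the hairpin gene, 98 bp downstream of its start. The summit of replicate 1 lay 66 bp away at 14034040, inside the gene. That of replicate 2 lay 17 bp away at 14034123, past the end of the gene.

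The E-box at mir-52 is part of the microRNA itself. CATATG at 14034032 to 14034037 forms bases 9 to 14 of the mature strand, directly after the seed. It lay 3 bp from the summit of replicate 1, 69 bp from the pooled summit and 86 bp from the summit of replicate 2. The mature strand of mir-53 holds CATTTG at the same bases, 9 to 14, and the partner strand of mir-51 holds CAGGTG at bases 15 to 20. Of 458 annotated mature strands of all microRNA genes, 36 (7.86%) held an E-box, against 17 of 192 (8.85%) of the genes with a peak. mir-53 had no pooled summit in its window, but had a replicate 1 summit 41 bp downstream of its start. Any link between these E-boxes and the peaks was not tested.

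The second peak of the family served 3 genes on the X chromosome. mir-54, mir-55 and mir-56 follow each other on the minus strand, and mir-55b is annotated on the plus strand inside the protein-coding gene F09A5.3. The peak at 13144444 to 13144827 ranked 65 in the pooled list with a signal of 165. It ranked 69 in replicate 1 (signal 67.2) and 231 in replicate 2 (signal 93.9). Its estimated q was 2.46, a value over 1 that was taken as deposited. In this column weaker microRNA peaks can have a lower value, such as 0.562 at rank 28798 (mir-795), so it does not order the peaks by strength. The summit at 13144636 lay beyond the 3′ end of the mir-56 hairpin (13144691 to 13144787). It was 151 bp downstream of the start of mir-56, 288 bp downstream of that of mir-55 and 194 bp upstream of that of mir-55b. The replicate 1 summit lay 17 bp away and the replicate 2 summit coincided with it. The E-box CAACTG (13144627 to 13144632) lay 4 bp from the pooled summit and 8 bp from that of replicate 1.

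The other 3 genes of the seed family had no pooled summit in the window. For mir-54, the first hairpin of the X cluster, the same summit was 458 bp downstream of the start and thus beyond the limit. mir-51 and mir-53 lie near each other on chromosome IV, away from mir-52. Their nearest pooled summits were 7242 and 8821 bp from the start. mir-53 had a replicate 1 summit 41 bp downstream of its start, at rank 20076 with a signal of 25, and the nearest summit of replicate 2 was 15134 bp away. In all, 3 of the 6 genes with the seed had a pooled summit, 4 of 7 with mir-55b. These 4 were the microRNA genes whose peak was also in the thresholded list, which holds the 115 pooled peaks of highest signal. Among all 14752 genes with a pooled summit, 0.902% had their best summit in that list. The 4 genes stand on 2 peaks and are not separate observations.

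**Figure D1:**
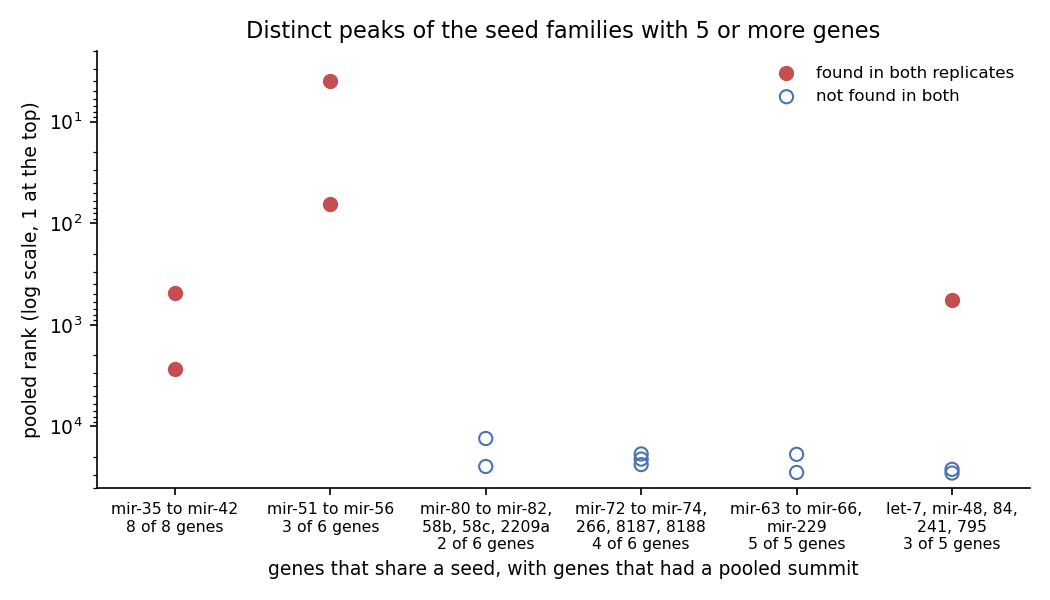
Pooled rank (log scale, 1 at the top) of each distinct peak of the 6 seed families with 5 or more genes, with filled points for peaks found in both replicates and open points for others. The 2 peaks of mir-51 to mir-56 sit at ranks 4 and 65 and the 2 of mir-35 to mir-42 at 489 and 2693, while 9 of the other 10 peaks sit below rank 10000.

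Recovery of a pooled peak in a replicate meant that the replicate's own list had a summit no more than 100 bp from the pooled one. The pooled list was made from both replicates, so being found is not independent of being in it. By this rule 20 of the 88 microRNA peaks (22.7%, exact Clopper-Pearson 95% interval 14.5 to 32.9) were found in both replicates. Replicate 1 alone held 19, replicate 2 alone held 42 and neither held 7. Replicate 1 thus held 39 in all (44.3%), against 47.2% of all pooled peaks. Replicate 2 held 62 (70.5%), against 69.5% of all pooled peaks. Both held 27.0% of all pooled peaks and 28.5% of the distinct best summits of genes of all types. The interval for microRNA peaks covers these shares. Counted over genes, 31 of 107 (29.0%) were found in both, a higher share because 7 genes of the mir-35 cluster share 1 such peak.

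MicroRNA peaks were found over nearly the whole range of ranks. The median pooled rank of the 88 peaks was 12908 (quartiles 6749 and 18663), against 15000 over the whole list and 14216 over the best summits of genes of all types. By type it was 6846 for snoRNA genes, 12809 for ncRNA genes and 14452 for protein-coding genes. Found peaks were concentrated at high ranks, as in the whole list. Both peaks within the first 115 were found in both replicates, as were 3 of 5 at ranks 116 to 1000, where the share over the pooled list was 81.7%. At ranks 1001 to 5000 the count was 7 of 13 (53.8%, interval 25.1 to 80.8) against 64.1%. At ranks 5001 to 10000 it was 4 of 13 (30.8%, 9.09 to 61.4) against 45.4%. At ranks 10001 to 20000 it was 4 of 38 (10.5%, 2.94 to 24.8) against 21.2%, and at ranks 20001 to 30000 it was 0 of 17 against 3.11%. The microRNA share was below the pooled share in every class after the first, and in every class its interval covered the pooled share.

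**Figure D2:**
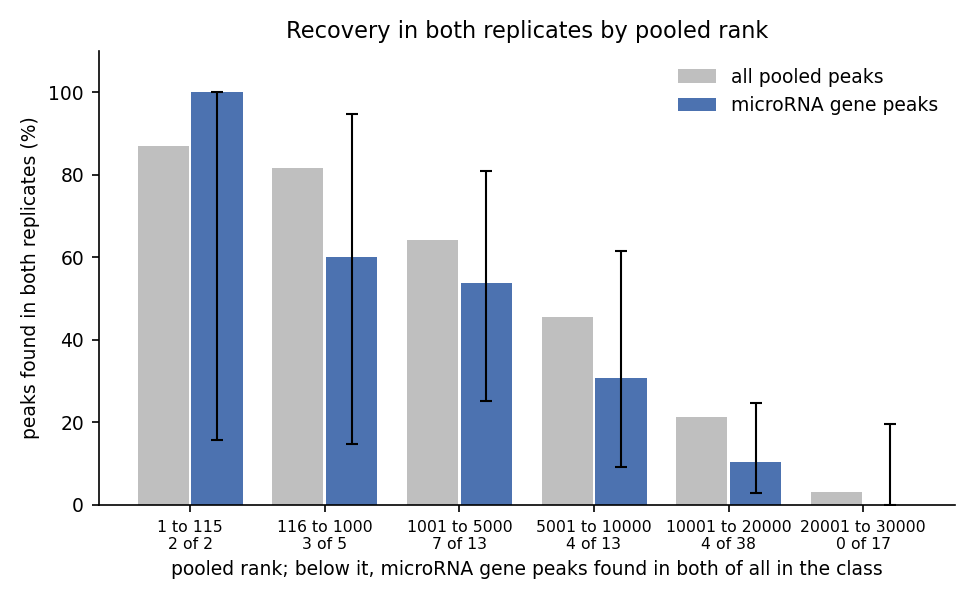
Percentage of peaks found in both replicates by class of pooled rank, for all pooled peaks (grey) and for microRNA gene peaks (blue, with exact 95% intervals). Both fall from the first class (87.0% of all pooled peaks and 2 of 2 microRNA peaks) to the last (3.11% and 0 of 17).

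Among the gene types of the annotation, the share of best summits found in both replicates was 28.5% for protein-coding genes, 30.1% for ncRNA genes, 28.1% for tRNA genes and 25.4% for pseudogenes. It was 28.4% for lincRNA genes and 28.8% for piRNA genes. All of these lie within the microRNA interval, but the microRNA share, 22.7%, was the lowest of the types with a pooled summit. The shares of snRNA genes (38.8%), snoRNA genes (45.6%) and antisense RNA genes (47.4%) lie above it. The difference between types was not tested.

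Among families with 2 or more peaks, the mir-35 family was the other in which every peak was found in both replicates. Its 8 genes carry the seed CACCGGG, and all 8 had a pooled summit, at 2 peaks on chromosome II. Sequences from both loci are shown because the 2 peaks stand differently to their hairpins. The mature strands of mir-35, mir-42, mir-43 and mir-44 are given with the seed in capitals.
mir-35: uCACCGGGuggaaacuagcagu
mir-42: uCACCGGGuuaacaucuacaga
mir-43: uAUCACAGuuuacuugcugucgc
mir-44: uGACUAGAgacacauucagcu
The peak windows are on the plus strand of ce11, with E-boxes in capitals.
mir-42 to mir-44, chrII:11889885-11890035: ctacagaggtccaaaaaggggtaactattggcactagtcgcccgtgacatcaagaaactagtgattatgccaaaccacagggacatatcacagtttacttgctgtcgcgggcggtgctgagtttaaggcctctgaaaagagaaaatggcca
mir-35 to mir-41, chrII:11537243-11537393: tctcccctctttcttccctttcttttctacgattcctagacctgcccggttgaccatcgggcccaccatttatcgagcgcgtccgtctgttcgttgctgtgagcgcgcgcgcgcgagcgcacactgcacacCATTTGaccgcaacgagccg
The first window held no E-box, and the second held CATTTG towards its 3′ end.

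The stronger of these peaks lay on the hairpins of a mixed cluster. mir-42, mir-43 and mir-44 are neighbours with 3 different seeds, and mir-42 is the member with the seed of the mir-35 family. Their peak ranked 489 in the pooled list (signal 121), 2685 in replicate 1 (signal 39.3) and 637 in replicate 2 (signal 84.2). The pooled summit at 11889960 lay inside the mir-43 hairpin, and the replicate summits were 5 and 0 bp from it. The other peak lay upstream of the 7 genes mir-35 to mir-41, with its summit at 11537318, 290 bp before the start of mir-35 and 990 bp before that of mir-41. It ranked 2693 in the pooled list (signal 97.8), 3605 in replicate 1 (signal 37.4) and 8109 in replicate 2. Its replicate summits lay 1 and 25 bp from the pooled one. The window rule counted this 1 peak for 7 genes.

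The other families of 5 or more genes had weaker peaks or less recovery. The seed GAGGUAG of let-7 is shared by let-7, mir-48, mir-84, mir-241 and mir-795, of which 3 had a pooled summit, and 1 of their 3 peaks was found in both replicates. That peak was upstream of mir-241, and the mir-84 and mir-795 peaks ranked 26474 and 28798. The seed AUGACAC of mir-63 to mir-66 and mir-229 was held by 5 genes that all had a pooled summit, at 2 peaks of ranks 18844 and 28430, neither found in both. The seed GGCAAGA (mir-72, mir-73, mir-74, mir-266, mir-8187 and mir-8188) had 4 of 6 genes with a summit, at 3 peaks with ranks from 18663 to 23771, none found in both. The seed GAGAUCA (mir-80, mir-81, mir-82, mir-58b, mir-58c and mir-2209a) had 2 of 6, at ranks 13161 and 24813, neither found in both. Over all families, with seeds of either annotated strand, 28 seeds were shared by 2 or more annotated genes and had a gene with a summit, and 10 of them had 2 or more peaks. In 2 of these 10, those of the mir-51 and mir-35 families, every peak was found in both replicates. Families were compared by their values only, since the same signals chose the genes.

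Genes in clusters and single genes were described side by side. A gene was called clustered when another microRNA gene started within 10 kb on its strand. Of 81 clustered genes 41 (50.6%, interval 39.3 to 61.9) had a pooled summit, and of 180 single genes 66 (36.7%, 29.6 to 44.2). Clustered genes can share a window, and 10 of their 23 peaks counted for 2 or more genes, against 0 of the 65 peaks of single genes. The interval over clustered genes takes such genes as independent and is too narrow. Over peaks, 6 of 23 at clusters (26.1%, 10.2 to 48.4) and 14 of 65 at single genes (21.5%, 12.3 to 33.5) were found in both replicates, and each interval covers the other share. With summits within 200 bp the counts were 11 of 23 (47.8%, 26.8 to 69.4) and 20 of 65 (30.8%, 19.9 to 43.4). The cluster share then lay above the interval of single genes, but the share of single genes lay inside the cluster interval. With clusters defined within 2 kb the counts were 6 of 16 (37.5%, 15.2 to 64.6) and 14 of 72 (19.4%, 11.1 to 30.5). Again the first share lay above the interval of the second, and the second share lay inside the interval of the first. The difference was not tested. The median pooled rank was 13161 at clusters (quartiles 4869 and 19548) and 12363 at single genes (7441 and 17957). Among the first 3000 ranks were 5 of the 23 cluster peaks and 7 of the 65 peaks of single genes. Counted over genes instead, 16 of 41 clustered (39.0%) and 15 of 66 single genes (22.7%) were found in both, and 7 of those 16 share the peak upstream of mir-35. mir-52 counts as single, while mir-55 and mir-56 count as clustered, and so does their peak, although mir-55b is single by its strand.

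**Figure D3:**
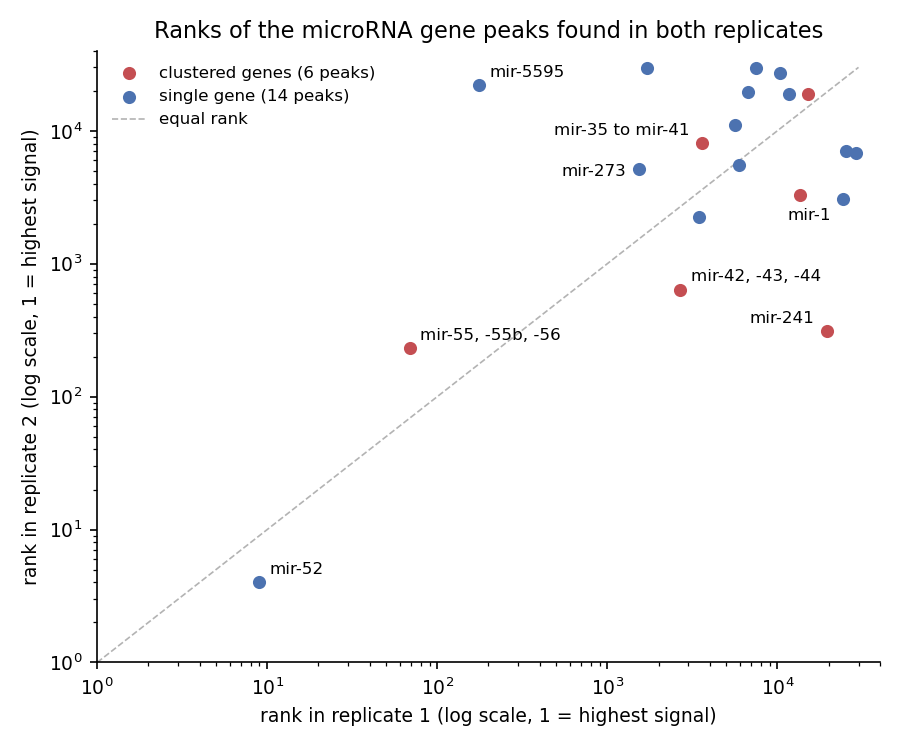
Rank in replicate 1 against rank in replicate 2 (both log scale, 1 for the highest signal) of the 20 microRNA gene peaks found in both, coloured by clustered or single genes, with a dashed line at equal rank. The mir-52 peak sits at ranks 9 and 4 and the mir-55 to mir-56 peak at 69 and 231, and the other 18 have ranks from 177 in replicate 1 and from 312 in replicate 2 upwards.

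Some strong pooled peaks were not found, or were found at unlike ranks, in the replicates. mir-71, which promotes survival of starved L1 larvae and long life, had the third strongest microRNA peak. That peak ranked 147 in the pooled list (signal 140, chromosome I), 981 bp upstream of the start of mir-71, which itself lies inside the host gene ppfr-1. The peak was found in neither replicate by the rule. The nearest summit of replicate 1 was 119 bp away, at rank 10513, and that of replicate 2 was 2156 bp away. Of the 885 pooled peaks at ranks 116 to 1000, 4 (0.452%) were found in neither.

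The peak upstream of mir-241, a let-7 relative that acts in developmental timing, ranked 564 in the pooled list (signal 119) and 312 in replicate 2 (signal 91.1). In replicate 1 it ranked 19577 (signal 25.3). Its summit lay 517 bp upstream of the start, and this was the gene with 3 pooled summits in its window. The peak of mir-58a, an abundant microRNA related to bantam of the fly, ranked 692 (signal 117) and lay 52 bp downstream of the start, inside the hairpin. It ranked 101 in replicate 2 (signal 104), and the nearest replicate 1 summit was 252 bp from it. The reverse order was seen 931 bp upstream of mir-5595. That peak ranked 2043 in the pooled list (signal 102), 177 in replicate 1 (signal 56.3) and 21955 in replicate 2 (signal 45.1). mir-1824, chosen for mention after its values were seen, ranked 3958 (signal 92.1) and 105 in replicate 1 (signal 61.2), with no replicate 2 summit within 1634 bp. What set the replicates apart at these loci was not tested.

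mir-273, known from work on the gustatory neurons of the head, had a summit 36 bp downstream of its start within the hairpin, and lies inside the host gene pde-3. It ranked 1310 in the pooled list (signal 108), 1527 in replicate 1 (signal 42.6) and 5116 in replicate 2 (signal 63.4). mir-1830 ranked 981 (signal 111), 3458 (signal 37.7) and 2231 (signal 72.3) in the same order, at a summit that is also in the start window of its host paic-1. mir-353 ranked 2577 (signal 98.4), 5969 (signal 34.1) and 5535 (signal 62.5), at a summit that is also in the start windows of rps-10 and D1007.10. The ranks of mir-1, the muscle microRNA, were again unlike between replicates. It ranked 2876 (signal 96.8) and 3054 in replicate 2 (signal 68.8) but 24432 in replicate 1 (signal 23.4), at a summit 149 bp downstream of its start.

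Lists of microRNAs grouped by known role are described next. For reference, 41.0% of all microRNA genes had a pooled summit. Both replicates held 22.7% of microRNA peaks and 27.0% of all pooled peaks. Counted over genes with a pooled summit, as in the lists, the share was 29.0%. The lists are short, and their difference from these shares was not tested. Of the 6 heterochronic genes, which time larval development, lin-4, mir-84 and mir-241 had a pooled summit, and that of mir-241 was found in both. lin-4 ranked 17190 (signal 67.8) and was found in replicate 1, and mir-84 ranked 26474 (signal 58.9) and was found in replicate 2. The nearest pooled summits to let-7, mir-48 and mir-237 were 3372, 1203 and 1778 bp from their starts. Of 9 genes listed for neurons and glia, mir-273, mir-228 and mir-8193 had a pooled summit. mir-228, which is expressed in glia of the worm, ranked 19548 (signal 65.2), and mir-8193 ranked 12363 (signal 73.9). Both were found in replicate 2 and not in replicate 1 within 100 bp. lsy-6 and mir-124, which act in sensory neurons, had no pooled summit in the window, and their nearest were 1366 and 506 bp away.

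Of the 5 genes listed for starvation and longevity, mir-71 had a pooled summit, and mir-235, mir-239a, mir-239b and mir-246 had none. Of the 7 annotated genes in the mir-58 list, mir-58a, mir-80 and mir-2209a had one, and 0 were found in both replicates. mir-80 ranked 24813 in the pooled list (signal 60.2) and 3610 in replicate 1 (signal 37.4). mir-2209a ranked 13161 (signal 72.8) and was found in replicate 2. The 4 genes of the mir-64 and mir-229 cluster, which lie inside gcn-1, shared 1 peak of rank 18844 (signal 66), found in replicate 2 at rank 7871 (signal 58.5). The nearest replicate 1 summit was 9631 bp from it. All 8 genes of the mir-35 list and 4 of 7 of the mir-51 list, the 4 with a pooled summit, were found in both. Each of these lists stands on 2 peaks. The 1 annotated gene of the muscle list, mir-1, was also found in both.

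The summits lay in all parts of the window, and per bp more genes had theirs near the start. Of the 107 genes, 33 had their best summit 1000 to 501 bp upstream, 17 at 500 to 201 bp, 21 at 200 to 1 bp and 36 from the start to 300 bp downstream. Per 100 bp of window, these classes held 6.6, 5.67, 10.5 and 12 genes. They count genes and not peaks, so the peak upstream of mir-35 enters 7 times and the mir-55 to mir-56 peak 3 times. Genes of other types were not counted in these classes, so the density is not shown to be particular to microRNA genes. The median distance was 236 bp, and in 12 genes the summit lay inside the hairpin gene itself. The pooled summits of the 3 strongest peaks stood at the 3′ edge of the hairpin (mir-52), past the hairpins (mir-55 and mir-56) and far upstream (mir-71). Near the limits of the window, the genes just inside were mir-257 (997 bp upstream), mir-41 (990) and mir-271 (988), and mir-55 (288 bp downstream), mir-8206 (282) and mir-229 (281). Just outside were mir-2210 (1016 bp upstream), mir-5592-2 (1031) and mir-8199 (1057), and mir-2214 (301 bp downstream), mir-1833 (360) and mir-1020 (399).

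**Figure D4:**
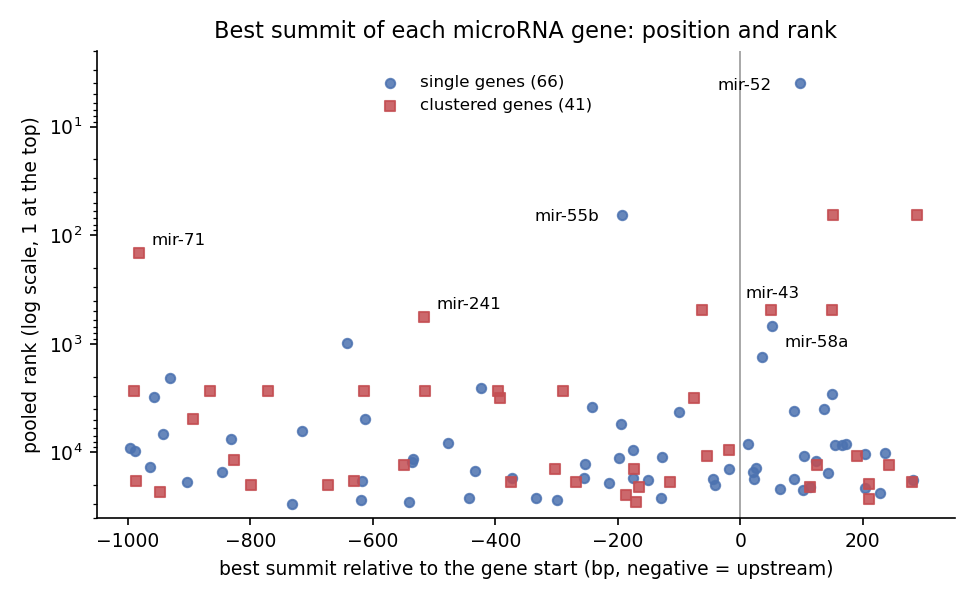
Distance of the best summit from the gene start (bp, negative upstream) against pooled rank (log scale, 1 at the top) for the 66 single and 41 clustered microRNA genes. Summits fill the whole window, and the strongest lie 98 bp downstream (mir-52) and, for 1 shared peak, at 3 distances (mir-55b, mir-56 and mir-55).

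Other genes near the summits were counted too. Of the 107 genes, 35 lie inside a protein-coding gene on the same strand, 19 inside one on the opposite strand only, and 53 outside protein-coding genes. Of the 35, 6 were found in both replicates (17.1%, interval 6.56 to 33.6), of the 19, 13 (68.4%, 43.4 to 87.4), and of the 53, 12 (22.6%, 12.3 to 36.2). The 13 on the opposite strand stand on 5 peaks, and 7 of them are mir-35 to mir-41 at 1 peak, so the interval over these genes is too narrow. Over distinct peaks the counts were 6 of 31 (19.4%, 7.45 to 37.5), 5 of 11 (45.5%, 16.7 to 76.6) and 10 of 47 (21.3%, 10.7 to 35.7), with the mir-55 to mir-56 peak in both of the first classes. Of the 88 peaks, 15 (17.0%, 9.87 to 26.6) also lay in the window of a protein-coding gene start, against 21.9% of all pooled peaks. By chromosome, the genes with a summit were 14 of 33 on I, 25 of 49 on II, 12 of 27 on III, 17 of 50 on IV, 9 of 28 on V and 30 of 74 on X. Peaks found in both replicates numbered 4 of 14, 5 of 17, 0 of 8, 4 of 16, 3 of 8 and 4 of 25 in that order. Shares by chromosome over all genes and all pooled peaks were not counted. These counts therefore show no trait of microRNA genes on any chromosome.

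For each of 4 short words sought around the microRNA summits, the interval of the share covered the share over the pooled list. An E-box, CANNTG, which reads the same on both strands, lay within 50 bp of 26 of the 88 summits (29.5%, interval 20.3 to 40.2), against 38.5% of all pooled summits. The E-box of mir-52 lies outside that distance from the pooled summit. CCTCTC, sought on both strands, lay within 50 bp of 3 summits (3.41%) against 3.57%. CGAGAG lay within 50 bp of 3 (3.41%), among them the mir-55 to mir-56 peak, against 3.23%. GTACAC lay within 50 bp of 1 (1.14%) against 2.87%. The median GC content within 50 bp was 42.6% at microRNA peaks and 40.6% over the pooled list. A further copy in the genome, of at least 90% identity over 100 bp, was found for 5 of the 88 peaks, none of them among the first 3000 ranks.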

How the data were processed

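The authors deposited peak lists of 2 biological replicates, each with 30000 relaxed peaks, a pooled relaxed list of 30000 and a list of 115 peaks thresholded by the irreproducible discovery rate, on ce11 and with a control, per the deposited notes. Which aligner and caller were run is not given in the sources used here. For each peak, the signal is the authors' own deposited value on an unstated scale that differs between lists, and it was used to rank peaks within a list. A deposited column on a log10 scale was read as −log10 of an estimated q. Read depth is unknown. Exact Clopper-Pearson 95% intervals treat the peaks or genes counted as independent and cover the counting only. Where genes share a peak, intervals over genes are too narrow.

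Gene starts came from Ensembl release 115 (WBcel235). All 107 genes were matched in RefSeq by WormBase identifier, and mature strands and windows were read from its WBcel235 genome. Genes, lists and words were chosen with earlier results of these data known, so no test was run. Named were the mir-51 family, the 15 genes with the highest pooled signal, genes of the lists, and the 3 genes nearest each limit of the window. The code of the window and recovery rules was checked on summits placed at known positions, which does not measure missed or false recovery in these lists. Python 3.11.15, pandas 2.3.3, SciPy 1.17.1 and BLAST 2.17.0 were used. Alternatives were the distances, windows, thresholds and single replicates given in the closing section.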

Additional observations from a re-analysis of the deposited data

How the results depend on the processing

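Of 46 alternatives over 8 results, 31 stayed within the limits set for them, 15 moved and 0 reversed. The limits were wide. A cluster share of 47.8% against 26.1% stayed within them, as did a count of 78 or 148 genes against 107. Staying within them therefore does not mean that a value was steady. The share of microRNA peaks found in both replicates, 22.7%, rose to 35.2% with summits within 200 bp and to 35.2% with intervals overlapping by at least 50% (in either case 47.8% at clusters and 30.8% at single genes), where the share of all pooled peaks within 200 bp was 36.9%. With any replicate summit in the gene window it was 51.1%, 52.2% at clusters and 50.8% at single genes. With 1 replicate left out, the share found in the other was 44.3% to 70.5% over all peaks, 47.8% to 65.2% at clusters and 43.1% to 72.3% at single genes. The count of 4 thresholded genes was 1 in the first 58 thresholded peaks and 1 among those with a q of 1 or less. In each case the gene was mir-52. The count was 2 without replicate 1 and 4 without replicate 2, but these need not be the same genes. In replicate 2, mir-52 ranked 4 and mir-58a 101, while the peak of mir-55, mir-55b and mir-56 ranked 231. In replicate 1, mir-52 ranked 9, mir-56 and mir-55b 69 and mir-1824 105, and mir-55 had no summit in its window. The q cut is no measure of confidence here, since weak pooled peaks have lower values than many strong ones. E-boxes lay within 25 bp of 12.5% of summits and within 100 bp of 55.7%, against 21.1% and 61.0% of all pooled summits. The number of genes with a summit was 78 to 148 by window, and 3 to 4 genes of the mir-51 family were found in both. Within 50 bp the gene lost was mir-52, whose replicate 1 summit lay 66 bp from the pooled one, and the other 3 share 1 peak. With any replicate summit in the gene window the gene lost was mir-55. Clusters against single genes gave 37.5% and 19.4% at 2 kb, 27.3% and 11 of 55 at 50 kb, and 24.0% and 22.2% at 10 kb on either strand. No paired analysis was possible because there is 1 group. Depth is unknown, so peaks absent from a list may be undetected.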

Other observations

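Of the 154 microRNA genes without a pooled summit in the window, 29 had a summit there in replicate 1 and 20 in replicate 2. In 7 genes (mir-48, mir-1018, mir-4921, mir-4923a, mir-4923b, mir-4925 and mir-8207), named after their values were seen, both replicates had one, and in 0 of these did the summits lie within 100 bp of each other. The 5 of these from mir-1018 to mir-4925 share 1 summit of each replicate, 390 bp apart. At mir-48, a let-7 relative, they ranked 15610 in replicate 1 and 19963 in replicate 2, on opposite sides of the start, 1050 bp apart. mir-81, of the mir-58 family, had a replicate 2 summit 56 bp upstream of the start at rank 5059, and no replicate 1 summit within 482 bp.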
